A study of Mus musculus with 12 samples.

Results

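The regenerating (Reg) genes described here are the rows of the expression table whose symbol was Reg1, Reg3a, Reg3b, Reg3g or Reg4. Of these 5 genes, 3 were in the table of 17734 genes, namely Reg3b, Reg3g and Reg4. Reg1 and Reg3a were not analysed here, nor were the other family genes Reg2 and Reg3d. The family was selected on measured values, partly because the rise of Reg3b from normal to colitis mice was among the largest in the table. The difference between colitis and normal mice is therefore given for these genes as a description, without a test.

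RNA was sequenced from the rectum of 12 male C57BL/6 mice aged 8 to 10 weeks, a tissue the labels call colorectum. Normal mice drank water, and colitis mice drank 2.5% dextran sulfate sodium (DSS), a polymer that injures the bowel lining, for 7 days. The other two groups, normal and colitis mice receiving BBR, were also gavaged with berberine (BBR), a plant alkaloid, at 100 mg/kg for 7 days by the methods and 6 days by the labels. Each group held 3 mice, numbered 1, 3 and 4 in both normal groups, 1, 2 and 4 among colitis mice, and 2, 3 and 4 among colitis mice receiving BBR. The table held 1 value per gene and mouse, read as FPKM, a fragment level scaled for transcript length and sequencing depth.

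Reg proteins are small secreted lectins with a single C-type lectin-like domain. Reg3b and Reg3g are made by enterocytes and Paneth cells, bind bacterial surfaces and kill bacteria or keep them away from the epithelium. Their genes are known to be switched on by bacterial contact and by interleukin 22, which acts through its epithelial receptor and the transcription factor Stat3. Reg4 is a more distant member, known in the colon as a marker of deep crypt secretory cells, which lie between the stem cells at the crypt base, and of some enteroendocrine cells.

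The promoters are shown because Reg3b and Reg3g share the bases next to their start and a TATA box there. All 3 genes matched RefSeq (assembly GRCm38.p6), and the 250 bases before each start are printed 5′ to 3′ on the strand of the gene. Capitals mark TTCNNNGAA, the letters of a paired STAT half-site, and the TATA box letters TATAAA, on either strand. The windows are chr6:78370635-78370884 on the plus strand for Reg3b, chr6:78468875-78469124 on the minus strand for Reg3g and chr3:98221906-98222155 on the plus strand for Reg4.
Reg3b: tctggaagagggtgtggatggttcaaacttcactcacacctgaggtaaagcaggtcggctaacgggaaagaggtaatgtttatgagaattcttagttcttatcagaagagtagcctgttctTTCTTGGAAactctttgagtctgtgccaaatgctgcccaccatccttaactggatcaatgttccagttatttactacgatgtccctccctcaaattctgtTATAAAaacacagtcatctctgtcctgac
Reg3g: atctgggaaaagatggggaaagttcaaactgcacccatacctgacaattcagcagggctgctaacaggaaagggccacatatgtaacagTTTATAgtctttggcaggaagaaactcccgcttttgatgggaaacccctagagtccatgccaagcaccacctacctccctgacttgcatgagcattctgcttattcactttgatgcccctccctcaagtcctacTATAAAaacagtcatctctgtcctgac
Reg4: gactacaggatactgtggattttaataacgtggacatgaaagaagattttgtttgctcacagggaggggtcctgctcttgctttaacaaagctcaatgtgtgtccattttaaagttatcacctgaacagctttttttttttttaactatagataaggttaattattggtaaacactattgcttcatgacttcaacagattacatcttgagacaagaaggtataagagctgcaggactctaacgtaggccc
The promoters of Reg3b and Reg3g were 70.0% identical over 247 aligned bases, and the last 20 bases before the start were the same in both (acagtcatctctgtcctgac). Reg4 shared 65.5% of 191 aligned bases with Reg3b and 62.4% of 181 with Reg3g. These values do not set Reg4 apart within the family, since the promoters of Reg3a and Reg3b were 65.1% identical and those of Reg3a and Reg3g 71.5%. TATAAA began at position -29 in Reg3b and at -27 in Reg3g, counted from the start, and was not found in the Reg4 window. Reg3g also held it on the opposite strand at -161, where the printed strand reads TTTATA. On either strand TATAAA was found in 12.4% of 32851 mouse promoter windows of the same length. TTCNNNGAA occurred once, at -129 of Reg3b, and in 7.02% of all windows. Such a match describes the letters and does not show that a factor binds there.

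Reads of 50 bases that match exactly could be told apart between the genes. Reg3b and Reg3g transcripts were 74.4% identical over 739 aligned bases. Nevertheless, 0 of 821 different 50-base words of Reg3b, 0 of 722 of Reg3g and 0 of 972 of Reg4 occurred in a transcript of another gene. Only exact matches to GENCODE M21 transcripts were counted.

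The table holds no read counts. The spacing of its low values put the depth at about 12700000 to 19700000 reads per mouse. A floor of 3 reads corresponded to 0.207 to 0.328 FPKM for the Reg3 genes. The 4 mice numbered 4 stood apart in every group, with totals of at most 504337 FPKM against at least 696286 in the other 8. They also had fewer genes at 0, 872 to 1086 against 1332 to 1926. Values are therefore given for each mouse by number. The epithelial markers Epcam, Cdh1 and Vil1 were present in every mouse. Of 12 markers of small intestine and Paneth cells, 9 were in the table, and the enterocyte enzymes Sis and Lct reached at most 0.17 FPKM. Of the 7 tested, 4 were higher and 3 lower in colitis than in normal mice. The matrix protease Mmp7 was called higher, as were 0.653% of all genes, by 2.92 on the log2 scale (adjusted p = 0.0173 by limma, and 0.0353 to 0.0786 leaving out 1 mouse). It was at 0 to 0.16 FPKM in normal and 0.81 to 1.89 FPKM in colitis mice, so 2.92 depends on the 0.1 FPKM added. Anpep and Enpep were lower without overlap (28.6%), as were 22.2% of all genes. With a block for the mice numbered 4 Anpep was called lower, as were 6.42%.

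Both Reg3 genes were at or below the floor in all 6 normal mice, with or without BBR, and above it in all 3 colitis mice. Reg3b, which is known to act against Gram-negative bacteria, was listed at 0, 0.14 and 0 FPKM in normal mice 1, 3 and 4, where 0.14 FPKM was the worth of 1.37 reads. It stood at 400.55, 53.61 and 27.49 FPKM in colitis mice 1, 2 and 4. The groups did not overlap, and the mean in colitis mice was 160.55 ± 208 FPKM (SD, n = 3). With normal mice set at the highest floor of 3 reads in 1 mouse, the colitis mean was at least 524-fold higher. Colitis mouse 1 carried this mean, and without it the bound was 132-fold. In colitis mouse 1 Reg3b was the gene ranked 286 of the table by level, and in colitis mouse 4 it ranked 2907.

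Reg3g, a lectin that binds the peptidoglycan of Gram-positive bacteria, was listed at 0 in normal mice 1, 3 and 4. It stood at 79.69, 29.46 and 4.92 FPKM in colitis mice 1, 2 and 4, a mean of 38.0 ± 38.1 FPKM (SD, n = 3). Every colitis mouse was above every normal mouse, in the same order of mice as for Reg3b, and with the same floor the mean was at least 122-fold higher, or 55.2-fold without colitis mouse 1. The spread within colitis was wide, 14.6-fold between the highest and the lowest mouse for Reg3b and 16.2-fold for Reg3g. Reg3b exceeded Reg3g in each colitis mouse, by 5.03-, 1.82- and 5.59-fold on this length-scaled unit in mice 1, 2 and 4.

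Reg4 went the other way. It was an abundant transcript of the normal rectum, at 371.65, 316.52 and 183.31 FPKM in normal mice 1, 3 and 4. In colitis mice 1, 2 and 4 it stood at 42.26, 25.98 and 114.17 FPKM. The groups did not overlap, and the mean fell from 290.5 ± 96.8 to 60.8 ± 46.9 FPKM (SD, n = 3 each), a 4.78-fold difference. The mouse numbered 4 was the lowest of the normal mice and the highest of the colitis mice. Between same-numbered mice the difference was -3.13 on the log2(FPKM + 0.1) scale for mice 1 and -0.68 for mice 4.

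On the log2(FPKM + 0.1) scale, colitis mice differed from normal mice by 9.29 for Reg3b, 7.83 for Reg3g and -2.47 for Reg4. Such log2 differences depend on the value of 0.1 that was added, since the Reg3 genes were at or near 0 in normal mice. By this difference Reg3b was second and Reg3g seventh from the top of 15315 genes tested, and Reg4 was in position 125 from the bottom. No overlap between colitis and normal mice was seen upward in 7.1% of the genes tested and downward in 22.2%. The median over all genes was -0.32.

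**Figure D1:**
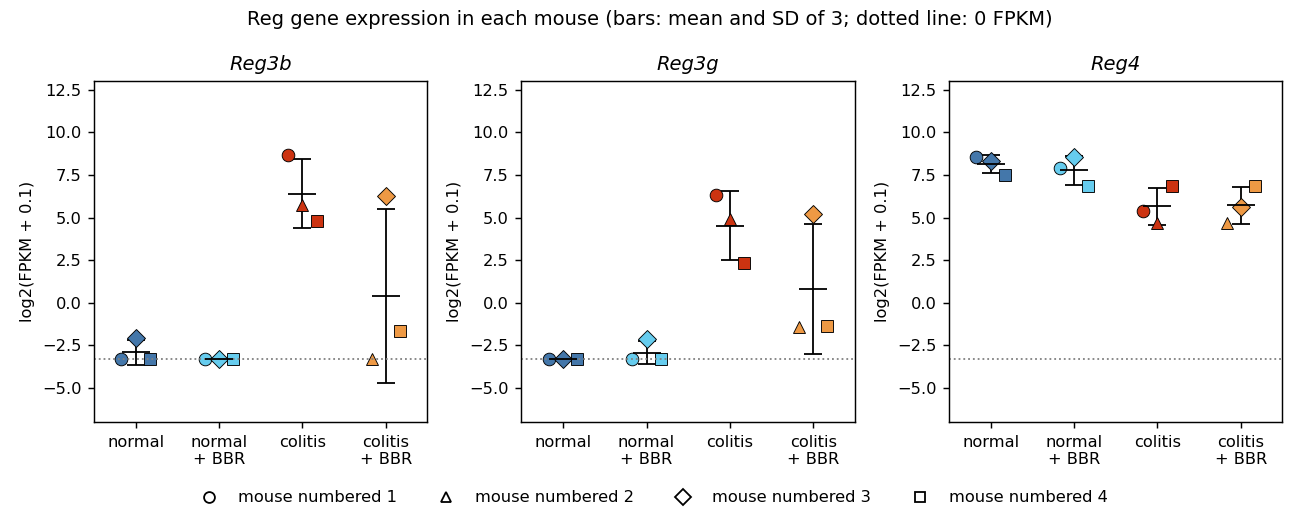
Each panel plots log2(FPKM + 0.1) of 1 Reg gene in the 12 mice by group, with the symbol giving the number of the mouse and bars the mean and SD of 3 mice. Reg3b and Reg3g lie far above the dotted line of 0 FPKM in the 3 colitis mice and in colitis mouse 3 receiving BBR, while Reg4 is lower in colitis and its mice numbered 4 lie close together.

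Colitis mice receiving BBR were compared with normal mice receiving BBR, 6 mice whose Reg3b level was not what chose the family. Earlier results of these mice were known all the same, and the fit takes its spread from all 12 mice. In colitis mice receiving BBR, Reg3b stood at 0, 75.31 and 0.22 FPKM in mice 2, 3 and 4, against 0 in all 3 normal mice receiving BBR. A single mouse thus carried the level, and mouse 2 overlapped the normal mice. The fitted difference was 3.75 ± 1.89 on the log2 scale (SE, n = 3 each), with a 95% confidence interval of -0.38 to 7.87 and an adjusted p of 0.277 by limma. With the compared groups alone the SE was 2.11 and the adjusted p 0.389. An exact permutation test, two-sided over the 3 and 3 mice, gave p = 0.4, where 0.1 is the smallest p possible. Without mouse 3 the difference was 0.84.

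Reg3g stood at 0.27, 36.86 and 0.29 FPKM in colitis mice 2, 3 and 4 receiving BBR. In normal mice 1, 3 and 4 receiving BBR it was listed at 0, 0.13 and 0 FPKM. The groups did not overlap, which was so upward for 2.26% of all genes, but mice 2 and 4 had the worth of 2.54 and 3.88 reads. The fitted difference was 3.73 ± 1.5 (SE), with an interval of 0.45 to 7.00, an unadjusted p of 0.0292 and an adjusted p of 0.232 by limma. The exact permutation p was 0.1. Without mouse 3 the difference was 1.53.

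Reg4 stood at 236.52, 375.49 and 114.35 FPKM in normal mice 1, 3 and 4 receiving BBR. It stood at 25.72, 48.67 and 116.59 FPKM in colitis mice 2, 3 and 4 receiving BBR. Mice 2 and 3 of the colitis group lay below every normal mouse, and colitis mouse 4 lay just above normal mouse 4, so the groups overlapped, whereas 18.0% of all genes were lower without overlap. The means were 242.1 ± 130.7 and 63.7 ± 47.3 FPKM (SD, n = 3 each), a 3.80-fold difference. The fitted difference was -2.04 ± 0.64 (SE), with an interval of -3.44 to -0.64 and an adjusted p of 0.215 by limma. The exact permutation p was 0.2.

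None of the 3 genes passed the adjusted limit of 0.05 in this comparison, in which 0.0392% of all genes did. Leaving out colitis mouse 4 receiving BBR brought Reg4 to -2.61 with an adjusted p of 0.0301, in a fit in which 13.1% of all genes were called lower. Among the 8 mice numbered 1 to 3 Reg4 differed by -3.07 with an adjusted p of 0.0238 by limma, where 13.5% were called lower. The direction was the same for all 3 genes in every alternative tried for this comparison. For the Reg3 genes other pseudocounts, filters or a left-out mouse could not turn it. No normal mouse receiving BBR lay above a colitis mouse receiving BBR in these genes. The median over all genes was -0.40, and centring on the median moved it to 0.06.

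The next comparison set colitis mice given BBR against those without it. The colitis mice are those whose high Reg3b level was used to choose the family, so a lower value in another group is no independent evidence. Reg3b was at 0 and 0.22 FPKM in 2 colitis mice receiving BBR, below the lowest colitis mouse at 27.49 FPKM, and at 75.31 FPKM in mouse 3, above 2 of the 3 colitis mice. The means were 25.2 ± 43.4 and 160.55 ± 208 FPKM (SD, n = 3 each), and the groups overlapped. The fitted difference was -5.97 ± 1.89 (SE), with an interval of -10.1 to -1.85, an unadjusted p of 0.00841 and an adjusted p of 0.548 by limma. The exact permutation p was 0.3.

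Reg3g had the same arrangement, with 0.27 and 0.29 FPKM in colitis mice 2 and 4 receiving BBR and 36.86 FPKM in mouse 3, against 4.92 to 79.69 FPKM in colitis mice. Its fitted difference was -3.71 ± 1.5 (SE), with an interval of -6.98 to -0.43, an unadjusted p of 0.0300 and an adjusted p of 0.699 by limma. In mouse 3 the ratio of Reg3b to Reg3g was 2.04, within the range of colitis mice. By limma 0 genes of 15315 (0.0%) passed the adjusted limit in this comparison, and 978 (6.39%) had an unadjusted p under 0.05.

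Whether the 2 genes passed the limit turned on colitis mouse 3 receiving BBR. Without it, the difference was -8.88 for Reg3b, with an adjusted p of 0.00586 by limma, and -5.91 for Reg3g, with an adjusted p of 0.0283, while 0.287% of all genes were called lower. Leaving out any other of the 6 mice compared gave no call for either gene. The colitis mice chose the family, so these calls too are no independent evidence of a lower level with BBR.

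Reg4 did not follow the Reg3 genes in this comparison. It stood at 25.98 FPKM in colitis mouse 2 and 25.72 FPKM in colitis mouse 2 receiving BBR. The 2 mice numbered 4 were at 114.17 and 116.59 FPKM, also close to each other. The group means were 60.8 ± 46.9 and 63.7 ± 47.3 FPKM, and the fitted difference was 0.07 ± 0.64 (SE) with an interval of -1.33 to 1.47. The adjusted p was 1.0 by limma and the exact permutation p was 0.8. The interval leaves room for a change of over 2-fold in either direction.

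**Figure D2:**
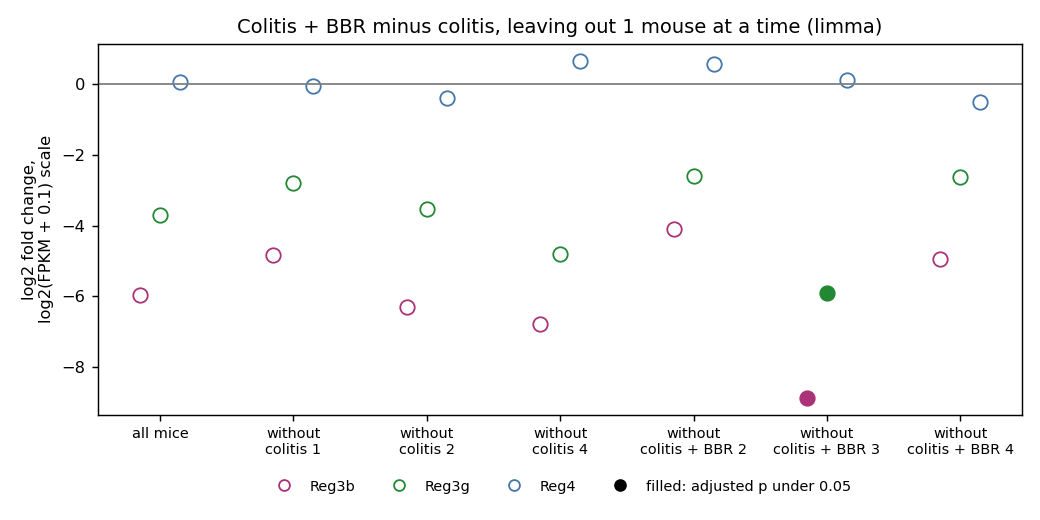
Each point is the fitted log2 difference, colitis mice receiving BBR minus colitis mice, with all mice and without 1 mouse at a time, and filled points have an adjusted p under 0.05. Reg3b and Reg3g stay below 0 throughout and are filled without colitis mouse 3 receiving BBR, while Reg4 lies on both sides of 0.

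In normal mice none of the 3 genes passed the test for BBR. The normal mice without BBR took part in the rise that chose the family, so this comparison is not independent of that choice. The Reg3 genes were at or below the floor in all 6 mice, so a difference was not detectable at this depth. Reg4 had means of 242.1 and 290.5 FPKM with and without BBR, a fitted difference of -0.36 ± 0.64 (SE) and an interval of -1.76 to 1.04. The adjusted p was 1.0 by limma for each gene, and 0.0% of all genes passed the adjusted limit, with 208 (1.36%) at an unadjusted p under 0.05. The interaction, which asks whether the difference with BBR was unequal in colitis and normal mice, was -5.55 ± 2.67 for Reg3b, -4.11 ± 2.12 for Reg3g and 0.43 ± 0.91 for Reg4 (SE). It draws on the same colitis mice. Each had an adjusted p of 1.00 by limma, and 0 genes (0.0%) passed for the interaction, with 371 (2.42%) at an unadjusted p under 0.05.

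**Figure D3:**
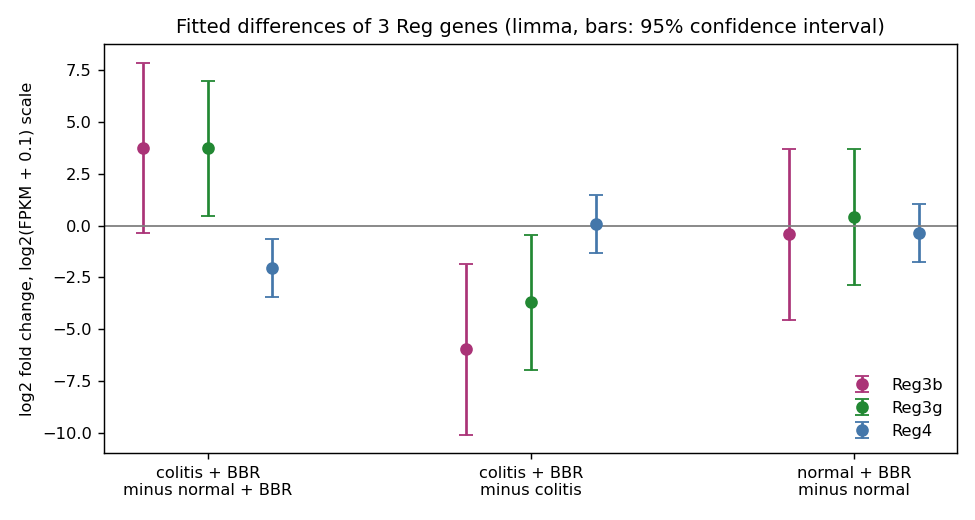
Points give the fitted log2 difference of each Reg gene in 3 comparisons and bars its 95% confidence interval (limma, 3 mice per group). The intervals of Reg4 are the narrowest, and the interval of Reg4 between colitis mice with and without BBR spans 0, from -1.33 to 1.47.

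Signals known to induce Reg3 genes were examined in a list of 28 receptors, cytokines and signalling genes, all in the table and tested. Not all of the 28 are inducers, since the list also holds Extl3, described as a receptor for Reg proteins, and feedback genes. Between colitis and normal mice 5 of the 28 rose and 0 fell, against 0.653% and 0.424% of all genes, with a list median of 0.85 against -0.32 for all genes. These 5 were the cytokines Il6, Il11, Il1b and Tnf and Socs3, a feedback inhibitor that Stat3 switches on. Socs3 rose by 3.74 on the log2 scale (adjusted p = 0.00325 by limma) and Il6 by 4.57 (adjusted p = 0.0218). The count was 8 among the mice numbered 1 to 3, where 1.56% of all genes were called higher, and 1 without colitis mouse 1 or without any 1 normal mouse, 3 without colitis mouse 2 and 5 without colitis mouse 4. Socs3 passed in each of these, with an adjusted p of 0.00992 to 0.0264 leaving out 1 mouse. Between the groups receiving BBR, Socs3 was the gene of the list that passed, higher by 3.96 in colitis (adjusted p = 0.00786 by limma), where 0.0261% of all genes were called higher, and the list median was 0.31 against -0.40. It did not pass without normal mouse 3 receiving BBR (adjusted p = 0.0842 by limma). Without colitis mouse 4 receiving BBR 6 of the list were called higher and 2 lower, against 1.63% and 13.1% of all genes, and among the mice numbered 1 to 3 there were 5 and 1, against 1.5% and 13.5%. Between colitis mice with and without BBR 0 of 28 passed, with a list median of -0.39 against -0.09. Without colitis mouse 3 receiving BBR 3 were called lower, Il6, Il22 and Tlr2, as were 0.287% of all genes.

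Il22 was at most 1.97 FPKM in all 12 mice, and its highest values came from the 4 mice with high Reg3 genes. It was listed at 0 in the 3 normal mice, at 0.08 FPKM in 1 of the 3 normal mice receiving BBR, and stood at 0.78, 0.58 and 0.89 FPKM in colitis mice 1, 2 and 4. In colitis mice 2, 3 and 4 receiving BBR it stood at 0.08, 1.97 and 0 FPKM, so that mouse 3 was the highest of all 12 mice. Its difference between colitis and normal mice was 3.07, with an adjusted p of 0.0949 by limma. With a block for the mice numbered 4 it was called higher (adjusted p = 0.0462), as were 2.8% of all genes. Il17a, another cytokine that acts on the epithelium, was at 0 in every normal mouse, with or without BBR, and at 0.43, 1.27 and 0.05 FPKM in colitis mice 1, 2 and 4. It stood at 0.30 and 1.17 FPKM in colitis mice 2 and 3 receiving BBR and at 0 in mouse 4.

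On the receiving side of the pathway, Il22ra1, Stat3, Extl3 and Myd88 did not pass the test over all 12 mice, and Extl3 was called lower in colitis between the groups receiving BBR among the mice numbered 1 to 3, as were 13.5% of all genes, and without colitis mouse 4 receiving BBR, as were 13.1%. Il22ra1, the epithelial subunit of the interleukin 22 receptor, lay between 21.95 and 32.76 FPKM in all 12 mice. Stat3 was at 31.64 to 35.31 FPKM in normal and 39.34 to 53.19 FPKM in colitis mice, a difference of 0.44 with an adjusted p of 0.255 by limma. Extl3, a glycosyltransferase family protein described as a receptor for Reg proteins, was at 4.11 to 6.51 FPKM in normal and 2.71 to 5.40 FPKM in colitis mice, with an adjusted p of 0.456. Myd88, the adaptor of the receptors that sense bacteria, differed by 0.49 with an adjusted p of 0.244.

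A second list held 27 other antimicrobial and acute-phase effectors of the mucosa, of which 25 were in the table and tested. In colitis against normal mice 7 rose and 0 fell, against 0.653% and 0.424% of all genes, with a list median of 1.68 against -0.32 for all genes. They were S100a8 (a subunit of calprotectin), Saa3 (an acute-phase protein), Nos2 and Duox2 (which make nitric oxide and hydrogen peroxide), Ltf (lactoferrin), Slpi (a protease inhibitor) and the chemokine Cxcl1. The count was 12 among the mice numbered 1 to 3, where 1.56% of all genes were called higher. It was 0 without any 1 normal mouse, and 1, 3 and 11 without colitis mouse 1, 2 and 4. Of all 15315 genes 10 to 12 were called higher without 1 normal mouse, and 13, 38 and 130 without colitis mouse 1, 2 and 4. Between the groups receiving BBR, Slpi passed, by 5.67 with an adjusted p of 0.0371 by limma, and the list median was 1.57 against -0.40. Here 11 were called higher among the mice numbered 1 to 3 and 11 without colitis mouse 4 receiving BBR, where 1.5% and 1.63% of all genes were called higher against 0.0261% with all mice, and 0 without any other 1 of the 6 mice compared. Between colitis mice with and without BBR 0 of 25 passed, or 1 (Nos2, lower) without colitis mouse 3 receiving BBR, where 0.287% of all genes were called lower, with a list median of -0.80 against -0.09. The list of effectors shares S100a8, S100a9 and Lyz2 with the lists of leukocytes and Zg16 with that of goblet cells.

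The other effectors were not all low in the 2 colitis mice receiving BBR that had low Reg3 genes. Colitis mouse 2 receiving BBR had Reg3b at 0 and Reg3g at 0.27 FPKM. It had S100a8 at 118.47, Slpi at 446.28 and Duox2 at 161.09 FPKM, each above the range of all 6 normal mice. Its Saa1, an acute-phase protein, was at 25674 FPKM, the highest of the 12 mice. Its Retnlb, a resistin family protein of goblet cells that acts on bacteria, was at 16.13 FPKM against 121.08 to 292.37 FPKM in colitis mice, and its Nos2 was at 11.69 against 105.24 to 192.15 FPKM.

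Colitis mouse 4 receiving BBR was lower in most of these. S100a8 was at 0.31, Saa3 at 1.13, Nos2 at 2.21 and Lcn2, an iron-binding defence protein, at 3.82 FPKM. Its Slpi was at 112.53 FPKM, its Socs3 at 23.95 and its Tnf at 2.15 FPKM, each above all 6 normal mice, which reached 14.18, 4.65 and 0.40 FPKM. Colitis mouse 3 receiving BBR, the mouse with high Reg3 genes, had Retnlb at 258.16, Nos2 at 147.79 and Slpi at 1118 FPKM, each within the range of colitis mice. Its Socs3 was at 61.15, its Tnf at 33.84 and its Duox2 at 298.09 FPKM, each the highest of the 12 mice. The 3 colitis mice receiving BBR thus differed from each other in most of the effectors named.

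**Figure D4:**
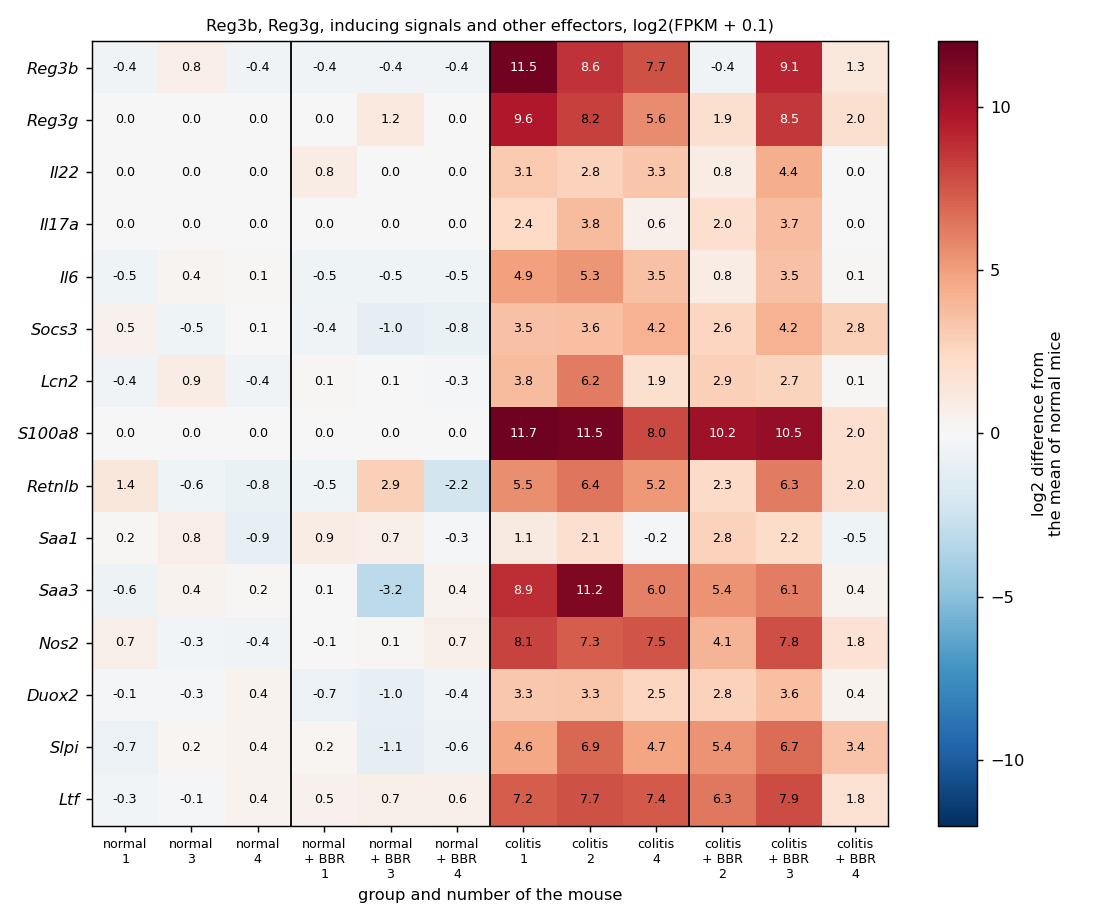
Each cell gives log2(FPKM + 0.1) of a gene in 1 mouse minus the mean of the 3 normal mice, for Reg3b, Reg3g, 4 inducing or feedback genes and 9 other effectors chosen after their values were seen. Colitis mouse 3 receiving BBR resembles the colitis mice, whereas mouse 2 has S100a8 and Slpi high with Reg3b at 0.

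Markers of other cells also differed between the groups. Of 14 granulocyte genes, 14 had higher values in colitis than in normal mice and 5 passed, where 0.653% of all genes were called higher. Among the mice numbered 1 to 3 it was 12, where 1.56% of all genes were, and leaving out 1 mouse gave 0 to 10. With BBR in colitis 14 of 14 had lower values, and 0 passed. Their summed level was 263 to 709 FPKM in the normal group, 609 to 4230 FPKM in colitis and 492 to 2954 in colitis mice receiving BBR. Ly6g, whose reads can be shared with related Ly6 genes, made up most of it. Without Ly6g, a sum formed after the values were seen, the 13 other genes came to 0.81 to 3.98 FPKM in the normal group, 52.1 to 519.6 FPKM in colitis and 3.63 to 223.4 FPKM in colitis mice receiving BBR. Ly6g also set the order of a pair of mice. Colitis mouse 2 receiving BBR, with Reg3b at 0, had 2096 FPKM with it against 1916 FPKM in colitis mouse 1, which had the highest Reg3b, and 223.4 against 509.7 FPKM without it. Of 12 macrophage and monocyte genes 12 were lower with BBR in colitis, again with 0 passing, and their sum was 317 to 956 FPKM in colitis mice and 164 to 324 FPKM in those receiving BBR. All 8 smooth muscle genes were lower in colitis than in normal mice without overlap, against 22.2% of all genes. Of these 0 passed without a block, and 8 were called lower with a block for the mice numbered 4, as were 6.42% of all genes. Their sum was 1648 to 3095 FPKM in the normal group, 71.5 to 663 FPKM in colitis and 478 to 3485 FPKM in colitis mice receiving BBR, where mouse 4 was the highest. Between the groups receiving BBR 14 of 14 granulocyte genes had higher values in colitis, with a median of 1.54, and 8 of 8 smooth muscle genes had lower values, with a median of -1.97, against -0.40 for all genes, and 0 passed in either list over all 12 mice without a block. Without colitis mouse 4 receiving BBR 5 granulocyte genes were called higher and 5 smooth muscle genes lower, against 1.63% and 13.1% of all genes, and Reg4 was called lower in that fit. In normal mice receiving BBR the sums were 420 to 794 FPKM for granulocyte, 201 to 319 FPKM for macrophage and monocyte and 2318 to 4935 FPKM for smooth muscle genes. The part of these cells in the Reg differences was not tested. In bulk tissue, fewer cells of a type and less RNA per cell cannot be told apart.

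The 12 epithelial genes were summed at 14510 to 21890 FPKM in the normal group, 13280 to 20680 FPKM in colitis and 15980 to 17550 in colitis mice receiving BBR, and 0 of 12 passed in any comparison. Markers of pancreatic acinar cells, where other Reg genes are known to be abundant, were partly at 0. Of 12 acinar markers 11 were in the table, Try4 was at 0 in every mouse and the amylase Amy2a5 reached 0.10 FPKM. Cela1 and Clps were present in all 12 mice. The summed level of the list, nearly all of it Cela1 and Clps, was 219 to 497 FPKM in the normal group and 82.8 to 158 FPKM in colitis. It was 177 to 263 FPKM in colitis mice receiving BBR. Of the 3 tested markers Cela1 was called lower in colitis, as were 0.424% of all genes. It fell by 2.12 on the log2 scale (adjusted p = 0.0288 by limma, and 0.048 to 0.143 leaving out 1 mouse). Cela1 and Cpb1, the latter at most 0.53 FPKM, were lower without overlap (66.7% of those tested), as were 22.2% of all genes. Of 12 squamous markers 8 were tested and 0 passed, or 1 (Krt6a, higher in colitis) with a block for the mice numbered 4, where 2.8% of all genes were called higher. Their sum was 12.1 to 67.2 FPKM in the normal group, 43.6 to 446 FPKM in colitis and 22.4 to 359 FPKM in colitis mice receiving BBR, most of it Sprr1a, and Krt5 reached at most 0.12 FPKM.

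Reg4 was set beside 12 genes of deep crypt secretory and goblet cells. Without a block, none of the 12 passed the adjusted limit in any comparison over all 12 mice. In colitis against normal mice 4 were higher and 8 lower, with a list median of -0.18 against -0.32 for all genes. Between the groups receiving BBR the list had 9 higher and 3 lower values and a median of 0.29 against -0.40. Kit and Best2 were called lower there without colitis mouse 4 receiving BBR, as were 13.1% of all genes, and Kit among the mice numbered 1 to 3, as were 13.5%. Reg4 was called lower in the same fits. The goblet cell mucin Muc2 was at 415 to 581 FPKM in normal and 352 to 1105 FPKM in colitis mice, and Agr2, which helps fold it, was at 1011 to 1881 and 993 to 1491 FPKM. Both overlapped between these groups, unlike Reg4.

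Of the 12 genes, 3 (25.0%) were lower without overlap, against 22.2% of all genes, namely Kit, Best2 and Atoh1, singled out after their values were seen. Kit, the receptor that marks deep crypt secretory cells, was at 6.55, 7.26 and 7.5 FPKM in normal mice and at 1.33, 1.47 and 4.30 FPKM in colitis mice 1, 2 and 4. Best2, an ion channel of goblet cells of the colon, was at 36.46 to 50.24 FPKM in normal and 7.20 to 21.13 FPKM in colitis mice. Atoh1, the transcription factor that specifies secretory cells, was at 28.58 to 34.44 and 9.88 to 20.61 FPKM. The adjusted p-values were 0.0907 for Kit, 0.141 for Best2 and 0.110 for Atoh1 by limma. With a block for the mice numbered 4 Kit (0.0230) and Atoh1 (0.0452) were called lower, as were 6.42% of all genes, and among the mice numbered 1 to 3 Kit was (0.0317), as were 3.69% of all genes. In all 3, as in Reg4, mouse 4 was the highest of the colitis mice.

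Enteroendocrine genes did not share the direction of Reg4. All 9 were higher in colitis than in normal mice, with a median of 1.11 against -0.32 for all genes. Over all 12 mice without a block 0 passed, while 3 were called higher among the mice numbered 1 to 3 and 3 with a block for the mice numbered 4, as were 1.56% and 2.8% of all genes. Gcg, which encodes the glucagon-like peptides, was at 22.91 to 46.53 FPKM in normal and 93.62 to 708.12 FPKM in colitis mice (adjusted p = 0.102 by limma). The summed level of the 9 genes was 520 to 1012 FPKM in the normal group, 748 to 5883 FPKM in colitis and 787 to 5968 in colitis mice receiving BBR.

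**Figure D5:**
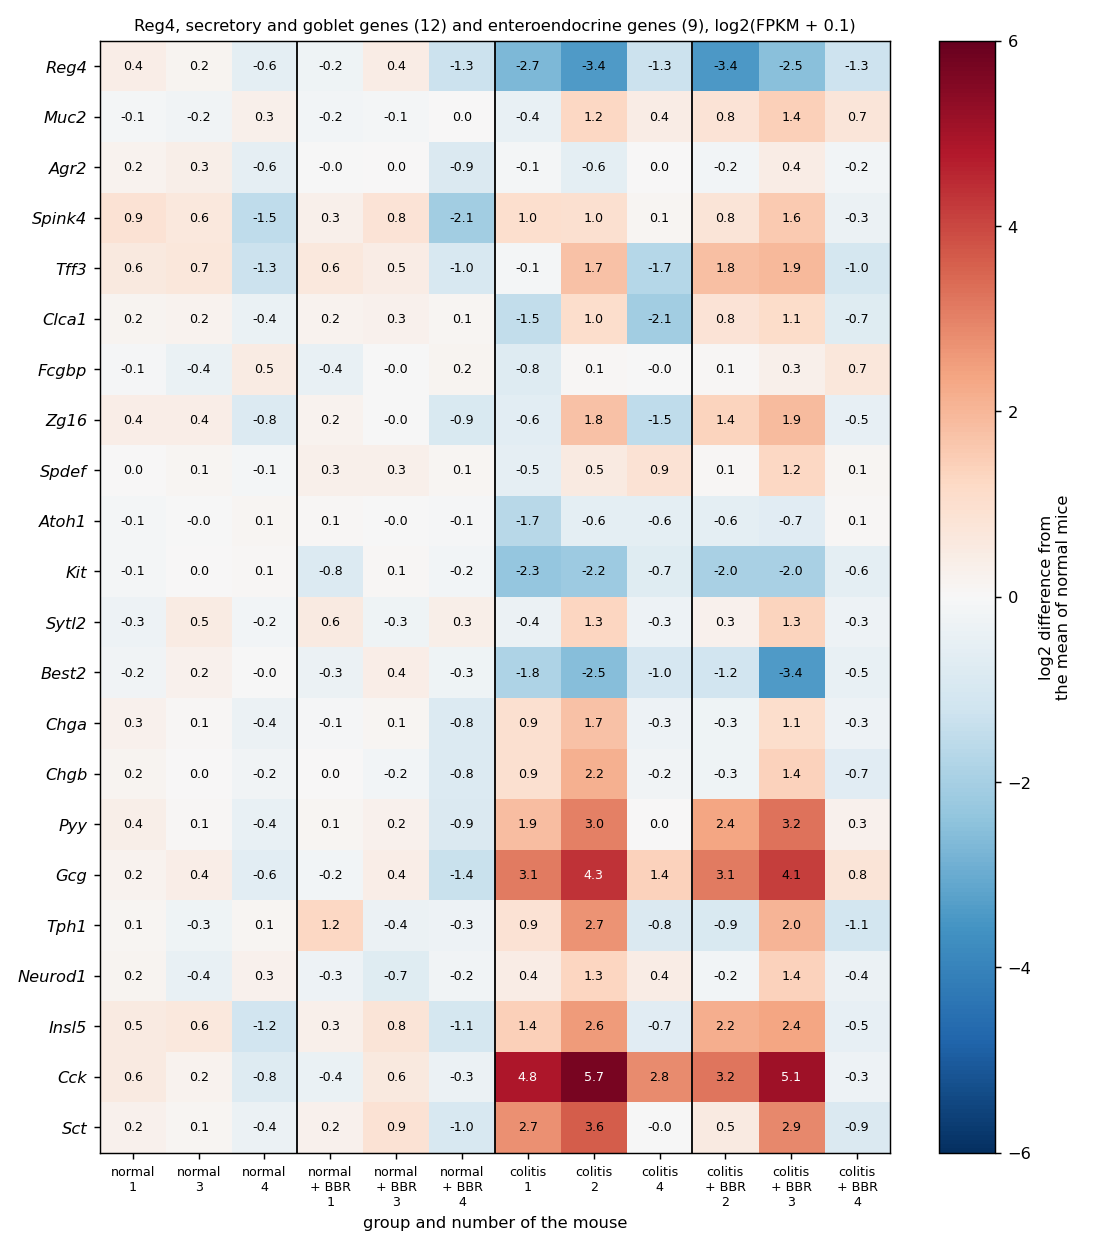
Each cell gives log2(FPKM + 0.1) of a gene in 1 mouse minus the mean of the 3 normal mice, for Reg4, 12 secretory and goblet genes and 9 enteroendocrine genes. Reg4, Kit and Best2 are below 0 in all 6 colitis mice with or without BBR, while Gcg is above 0 in all 6.

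The genes whose level was most like each Reg gene over the 12 mice were ranked by Pearson r of log2(FPKM + 0.1) among 11942 genes with a mean of at least 1 FPKM. The points share groups, depth and the mice numbered 4 that stand apart, so r is a description. For Reg3b they were Fer1l4 (r = 0.98), Spink6 (0.98), Reg3g (0.98), Adcy2 (0.97) and Sppl2a (0.97). For Reg3g they were Sppl2a (0.98), Spink6 (0.98), Il4ra (0.98), Cxcl3 (0.98) and Reg3b (0.98). Sppl2a, an intramembrane protease, was at 59.88 to 62.31 FPKM in normal and 176.17 to 265.47 FPKM in colitis mice, and from 80.86 to 282.58 FPKM in colitis mice receiving BBR. Il4ra, a receptor subunit for interleukins 4 and 13, was at 4.57 to 5.34, 17.59 to 30.47 and 6.19 to 26.46 FPKM in these groups.

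For Reg4 the genes most alike were Agk (r = 0.98), Gstm2 (0.98), Fam107b (0.97), Ctse (0.97) and Xrcc6 (0.97). Gstm2, a glutathione transferase, was at 108.55 to 222.59 FPKM in normal and 32.80 to 79.47 FPKM in colitis mice, and from 34.16 to 90.25 FPKM in colitis mice receiving BBR. Ctse, an aspartic protease, was at 50.85 to 68.94, 16.40 to 31.59 and 15.68 to 53.31 FPKM. None of these 5 was among the secretory or enteroendocrine genes listed.

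Reg4 was the highest of the 3 genes in all 6 normal mice. In colitis mice 1 and 2 Reg3b exceeded Reg4, and in colitis mouse 4 Reg4 exceeded Reg3b. Among colitis mice receiving BBR, Reg3b exceeded Reg4 in mouse 3, at 75.31 against 48.67 FPKM. In mice 2 and 4 Reg4 was the highest of the family genes measured.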

How the data were processed

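Rectal RNA of 12 mice was sequenced by the authors, by the methods on a BGISEQ-500 after ribosomal RNA removal, while the labels name another kit and platform. The authors filtered reads with SOAPnuke 1.5.2, aligned them with Bowtie2 2.2.5 and estimated expression with RSEM 1.2.12, and the submitters' processing notes name mm9. The deposited values were read as FPKM, and TPM of a partial set cannot be told apart. Groups and mouse numbers come from the labels.

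The 15315 genes that averaged at least 0.1 FPKM were fitted as log2(FPKM + 0.1) with limma 3.58.1 (R 4.3.3), with 1 mean per group over all 12 mice and a trend. Adjusted p-values are Benjamini-Hochberg over these genes, with a limit of 0.05. These fold changes understate the change of low genes. The fit was tested on simulated data. Read worth came from the steps of 1455 single-transcript genes (GENCODE M21), and floors cover counting error only. The members and the 12 gene lists were chosen with earlier results of these data known. The text names the Reg genes, list genes past the limit or set by name, and the 5 genes most like each member. Which list genes are printed was chosen after their values were seen. Alternatives were other pseudocounts, filters and scalings, the compared groups alone, blocks, the mice numbered 1 to 3 and leaving out each mouse, and those for the list counts were added after seeing the data. The normal groups shared 3 numbers, whose deviations correlated at 0.11 to 0.66, the highest for the mice numbered 4. Normal mice 1 and 3 correlated at 0.29 and 0.11 with the mouse of their number receiving BBR. With the other of these 2 numbers they correlated at 0.37 and 0.46. The numbers therefore show no pairing beyond the mice numbered 4, and the main fit used none. The labels do not say what a number marks.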

Additional observations from a re-analysis of the deposited data

How the results depend on the processing

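The directions of Reg3b and Reg3g in colitis mice receiving BBR, against either group, were the same under all 16 alternatives, and no scaling turned them. Against normal mice receiving BBR, other pseudocounts, filters or a left-out mouse could not turn them, since none of these mice lay above a colitis mouse receiving BBR. The colitis mice chose the family, so the direction against them is no independent evidence. The number of the mouse as a replicate block changed no call of the 3 genes, with Reg3b at 4.99 and Reg4 at -1.57 against normal mice receiving BBR, and Reg3b at -6.57 against colitis mice.

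Leaving out 1 mouse gave -2.61 to -1.52 for Reg4 between the groups receiving BBR. Between colitis mice with and without BBR it gave -8.88 to -4.10 for Reg3b, -5.91 to -2.59 for Reg3g and -0.50 to 0.67 for Reg4. For Reg4 it gave -0.76 to 0.10 for BBR in normal mice and -0.14 to 1.03 for the interaction. Reg4 reversed in 7 of these fits, at -0.05 without colitis mouse 1, -0.40 without colitis mouse 2 and -0.50 without colitis mouse 4 receiving BBR, at 0.10 for BBR in normal mice without mouse 4 receiving BBR, and for the interaction at -0.03, -0.04 and -0.14. Among the mice numbered 1 to 3 it was -3.07 between the groups receiving BBR. The cause was not tested.

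Genes called between the groups receiving BBR numbered 6, and 3 centred on the median, 0 with the compared groups alone, 268 with a block for the mice numbered 4, 2302 in the mice numbered 1 to 3 and 0 to 2255 leaving out 1 mouse. Between colitis mice with and without BBR they numbered 0, and 4 and 2 with pseudocounts of 1 and 0.01, 1 with no filter, 1 with the replicate block, 2 with the block for the mice numbered 4 and 0 to 58 leaving out 1 mouse. BBR in normal mice gave 1 with the compared groups alone. Colitis against normal mice gave 165, and 91 with a pseudocount of 0.01, 71 at a mean of at least 1, 258 with quantile normalization, 488 with the compared groups alone, 734 with the replicate block, 1412 with the block for the mice numbered 4, 804 in the mice numbered 1 to 3 and 11 to 211 leaving out 1 mouse. Reg3 values of 0.13 to 0.29 FPKM rest on fewer than 4 reads.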
